A study of Homo sapiens with 18 samples.

Results

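The comparison described here sets Raji cells harvested at 12 h against Raji cells harvested at 4 h, and asks which genes changed after the first hours of a treatment and which early changes had gone back by then. The differences are between 6 of the series' 18 arrays, 3 per time, over all 18417 genes that could be named by a single-gene probe set. Standard errors and p-values come from a fit of 15 arrays (0, 4, 12, 24 and 48 h) that share 1 estimate of the spread. Where a gene had several such probe sets, the one with the highest mean was taken. Raji is an established B cell line from a Burkitt lymphoma that carries Epstein-Barr virus. The cells of both times, and those of 0 h used to define the classes below, had according to the labels first been induced with sodium n-butyrate (3 mM) and a phorbol ester (0.05 µM) and then treated with maslinic acid (19 µM). The labels give the same 3 compounds for 0 h as for every other time, so the labels separate the groups by harvest time alone. What the compounds did and what time in culture did cannot be told apart. An arm without one of the compounds was not analysed here. The arrays are labelled biological replicates of 1 cell line, and the p-values measure only the spread between them. Arrays of 8 h were left out of the fit, and their values are given where they bear on a gene.

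Phorbol esters activate protein kinase C and the RASGRP exchange factors, which pass the signal to RAS and ERK, and butyrate inhibits histone deacetylases. Responses to such stimuli are known to come in waves: transcription factors of the immediate early class are made first, and genes that depend on newly made proteins or on slow changes in chromatin follow hours later. In B cells, the same signals act on a receptor system made of the antigen receptor, its coreceptors and the kinases and adaptors behind them, and on the genes that mark the germinal centre stage from which Burkitt lymphoma derives. Maslinic acid is a plant triterpene.

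The 6 arrays were alike in scale, with medians of 4.13 to 4.22 and interquartile ranges of 2.81 to 3.13 on the log2 scale, and lower quartiles of 2.91 to 3.07. Levels below are log2 intensities as the authors deposited them, and differences are of means on that scale. Over genes, the arrays correlated at 0.978 to 0.9904 within 4 h, 0.9848 to 0.9906 within 12 h and 0.9745 to 0.9822 between the times. Replicate 3 of 4 h had the lowest mean correlation with the others of its time among these 6 arrays (0.9796). Over all genes the median difference between 12 h and 4 h was 0.02.

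Between 4 h and 12 h, limma called 301 of 18417 genes (1.63%) at a Benjamini-Hochberg adjusted p under 0.05, 148 higher at 12 h (0.804%) and 153 lower (0.831%). Of these, 165 differed at least 2-fold, 82 higher and 83 lower. The 3 arrays of 12 h did not overlap with the 3 of 4 h for 300 of the 301, the exception being ODAPH, against 3295 of all genes (17.9%). The count rested on single arrays: leaving out the first or second array of 4 h gave 127 or 147 genes, and leaving out the first or last array of 12 h gave 89 or 105. At an unadjusted p under 0.05 the count was 1993 (10.8%). A fit of the 6 arrays of 4 h and 12 h alone called 360 genes, 240 of them among the 301. Of the 301 genes, 73 kept the call whichever 1 of the 9 arrays of 0, 4 and 12 h was left out. Arrays of 24 h and 48 h were not left out in turn, here or below. Without replicate 3 of 4 h the count was 302, of which 207 were among the 301.

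The called genes were sorted by what they had done in the first 4 h. For this the same fit gave 4 h against 0 h (385 genes called, 2.09%) and 12 h against 0 h (1608 genes, 8.73%). These comparisons share arrays, so the classes describe the course of a gene and are no independent evidence of it. The largest class, 188 genes, was delayed: not called at 4 h, with a difference from 0 h under 0.5 there, and called at 12 h against both earlier times in 1 direction. It held 104 genes that rose and 84 that fell. Another 21 genes continued in the direction they had taken by 4 h, 6 upward and 15 downward. Only 10 genes were returning, called in opposite directions over the 2 intervals: 8 had risen by 4 h and fell after it, and 2 had fallen and rose. The other 82 called genes belonged to no class. For 37 of those the 12 h level was not called against 0 h, and the other 45 had moved by 0.5 or more at 4 h without a call, 44 of them in the direction of the later change.

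**Figure D1:**
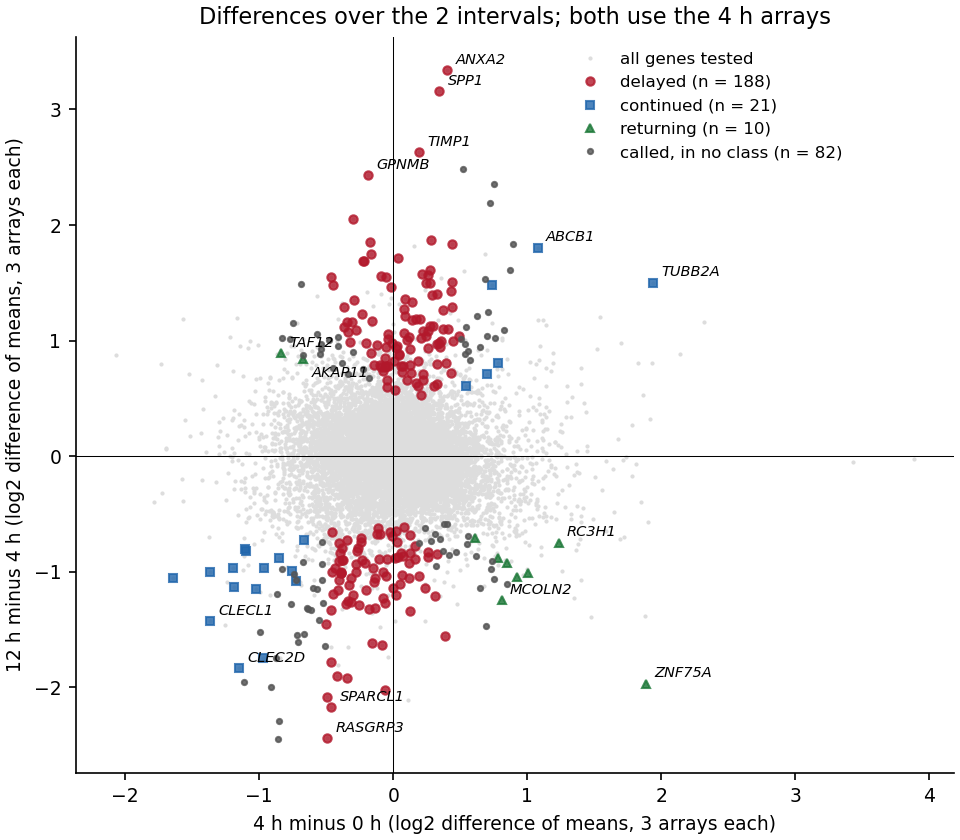
Each point is 1 gene. The horizontal axis is the log2 difference of 4 h minus 0 h and the vertical axis that of 12 h minus 4 h, both differences of means of 3 arrays. Grey points are the 18417 genes tested and coloured symbols the called genes: 188 delayed, 21 continued, 10 returning and 82 in no class. Delayed genes form columns above and below 0 on the horizontal axis, continued genes lie at the lower left and upper right, and ZNF75A lies farthest from the others of the returning class.

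Genes named for the size of their change were taken from called genes whose arrays did not overlap between the times. Lack of overlap is therefore no further support for them. The largest rise after 4 h was that of ANXA2. ANXA2 (probe set 7989335, chromosome 15), which encodes the calcium-dependent membrane-binding protein annexin A2, read 5.35, 5.39 and 6.62 on the arrays of 4 h and 9.28, 9.10 and 9.0 on those of 12 h. That is a 10.1-fold rise, 3.34 on the log2 scale (SE 0.34, limma adjusted p = 0.000274). The highest array of 4 h still lay far below every array of 12 h. SPP1, the gene of the secreted matrix protein osteopontin, read 3.60, 4.10 and 3.23 at 4 h and 7.13, 6.13 and 7.14 at 12 h, 8.91-fold higher (SE 0.33 on the log2 scale, adjusted p = 0.000274). TIMP1, which encodes a secreted inhibitor of matrix metalloproteinases, read 4.75, 4.27 and 4.68 and then 7.12, 6.69 and 7.78, a rise of 2.63 (SE 0.39, adjusted p = 0.00246). GPNMB, which encodes a glycoprotein of lysosomes and the cell surface, read 5.81, 5.21 and 5.22 at 4 h and 8.05, 7.31 and 8.18 at 12 h, a rise of 2.43 (SE 0.27, adjusted p = 0.000349). For all 4 genes the groups were far apart, and no call was lost when any 1 array of 0, 4 or 12 h was left out. Their 4 h level differed from 0 h by between -0.19 and 0.40 without a call. At 8 h the means were 7.97 for ANXA2, 5.34 for SPP1, 5.68 for TIMP1 and 7.46 for GPNMB, each between the means of 4 h and 12 h.

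**Figure D2:**
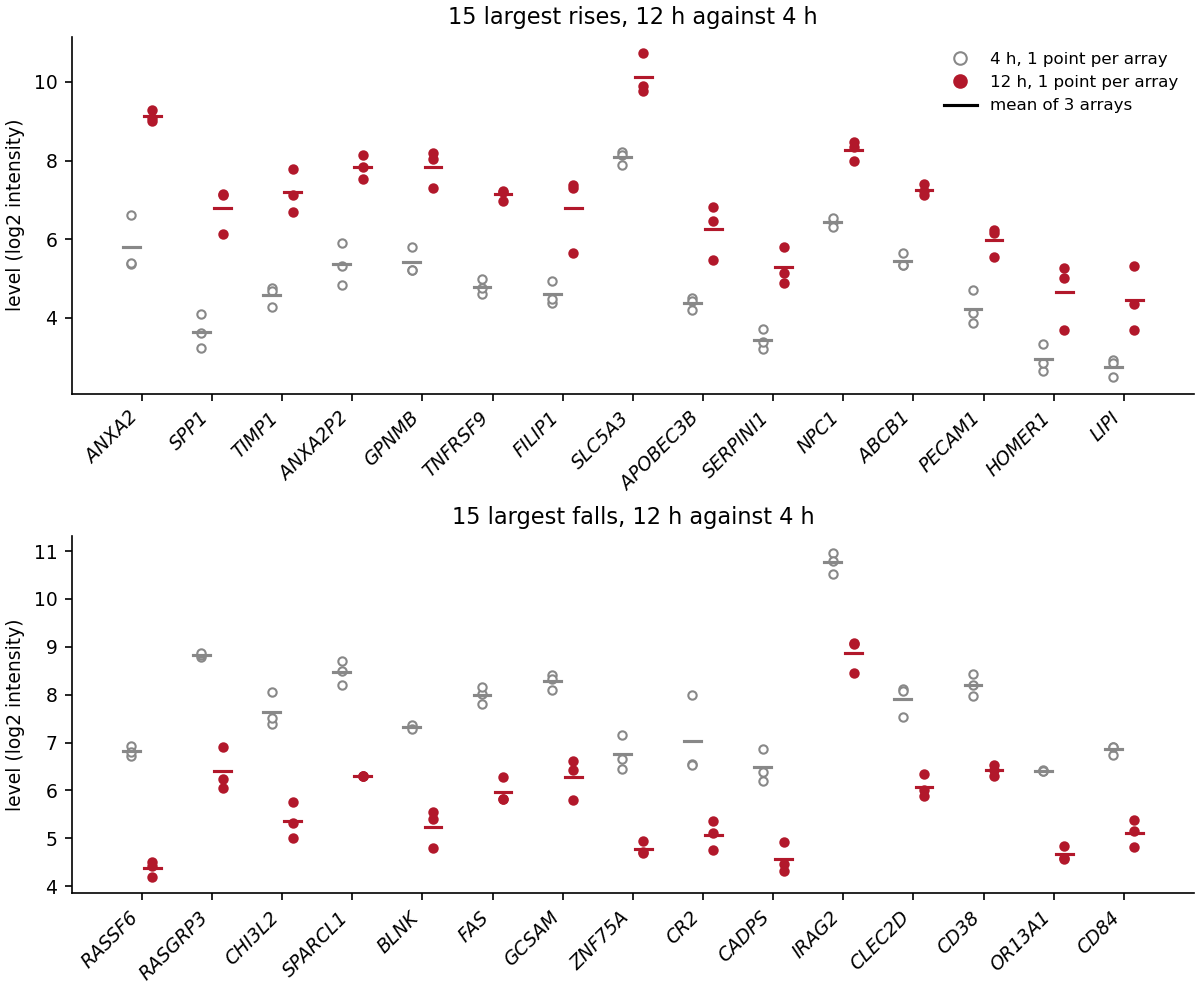
Levels (log2 intensity, vertical axis) of the 15 genes with the largest rises and the 15 with the largest falls between 4 h (open grey) and 12 h (filled red), with 1 point per array and a bar at the mean of 3 arrays. In each gene the 3 arrays of 12 h lie on 1 side of the 3 arrays of 4 h, which the choice of these genes required. ANXA2 shows the widest gap of the rises, 10.1-fold, and CR2 has 1 array of 4 h above the other two.

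Some of the largest delayed changes can be set beside the sequence before the gene's start. RefSeq promoter windows of 250 bases before to 50 bases after the start (GRCh38.p14) matched 86 of the 104 delayed genes that rose, 72 of the 84 that fell and 14237 of the 18417 genes tested. Phorbol esters are known to activate AP-1, the FOS and JUN dimer. A loose pattern of its letters was searched as TGANTCA, in which N is any base. These letters read the same on both strands. They stood in 7 windows of delayed rises (8.14%), 9 of delayed falls (12.5%), 795 of the matched genes tested (5.58%) and 2120 of all 27305 windows of the RefSeq table (7.76%). The stretches below run 5′ to 3′ in the direction of the gene, with these letters in capitals. They belong to the delayed genes named for the size of their change whose window holds the letters wholly before the start. Matches that reach past the start count in the shares above but are not shown. ANXA2 (chr15:60398067-60398153, minus strand) and GPNMB (chr7:23246601-23246687, plus strand) rose, and FAS (chr10:88990548-88990602, plus strand), FCRL3 (chr1:157700887-157700973, minus strand) and CD180 (chr5:67196877-67196963, minus strand) fell.
ANXA2: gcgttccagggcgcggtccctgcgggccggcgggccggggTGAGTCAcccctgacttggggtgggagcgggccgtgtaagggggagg
GPNMB: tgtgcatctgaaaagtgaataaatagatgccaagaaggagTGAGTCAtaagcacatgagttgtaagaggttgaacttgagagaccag
FAS: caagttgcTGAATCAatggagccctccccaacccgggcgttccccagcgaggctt
FCRL3: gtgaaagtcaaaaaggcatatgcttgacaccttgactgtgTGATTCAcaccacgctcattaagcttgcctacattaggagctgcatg
CD180: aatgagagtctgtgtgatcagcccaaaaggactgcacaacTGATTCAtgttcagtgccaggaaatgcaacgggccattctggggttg
The match begins 127 bases before the start of ANXA2, 134 before GPNMB, 242 before FAS and 164 before FCRL3. The base at N was G for ANXA2 and GPNMB, A for FAS and T for FCRL3 and CD180. Binding of AP-1 to these forms was not tested. The letters of EGR factors, GCGGGGGCG on either strand, stood in 10 windows of delayed rises (11.6%), 3 of delayed falls (4.17%), 992 of the matched genes tested (6.97%) and 5.02% of all windows of the table. Patterns named CRE, kappaB, E-box and antioxidant element were searched as well. In delayed rises their shares were 1.16%, 4.65%, 8.14% and 9.3%, in this order. Those of the matched genes tested were 2.65%, 3.99%, 8.88% and 14.6%, and those of delayed falls 1.39%, 1.39%, 11.1% and 16.7%. Of all patterns searched, AP-1 and EGR lay furthest above the matched genes in delayed rises. Differences between these shares were not tested. A match to any of these patterns describes letters only.

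Further rises included TNFRSF9, the costimulatory receptor 4-1BB, with 4.59, 4.99 and 4.76 at 4 h and 7.21, 6.97 and 7.23 at 12 h. It was 5.12-fold higher (SE 0.28 on the log2 scale, limma adjusted p = 0.000562) and the times did not overlap. PECAM1, an adhesion receptor of endothelium and leukocytes, read 4.70, 4.12 and 3.87 and then 6.24, 5.55 and 6.17, a rise of 1.75 (adjusted p = 0.00464). Its second probe set, near the lower end of the scale at 2.32 and 2.21, had a difference of -0.11, and with the mean of both probe sets the call was lost (adjusted p = 0.0884). SLC5A3, the myo-inositol transporter, rose from 7.89, 8.21 and 8.14 to 9.89, 10.74 and 9.76, 4.14-fold (adjusted p = 0.0111, and 0.0577 without replicate 1 of 4 h). FILIP1, which encodes a filamin-interacting protein, read 4.37, 4.48 and 4.92 at 4 h and 7.30, 5.65 and 7.39 at 12 h (adjusted p = 0.00768). Replicate 2 of 12 h was low for FILIP1, and the call did not hold without replicate 1 of 12 h (adjusted p = 0.0543) or replicate 3 of 12 h (adjusted p = 0.0519). SERPINI1, which encodes the protease inhibitor neuroserpin, rose by 1.85 (adjusted p = 0.00251), and APOBEC3B, which encodes a cytidine deaminase that edits single-stranded DNA, by 1.87 (adjusted p = 0.00601).

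ANXA2P2, a processed pseudogene of ANXA2, rose by 2.48 (limma adjusted p = 0.000875), from 5.33, 4.83 and 5.91 to 7.84, 7.54 and 8.13. Its probes can share signal with ANXA2, so the 2 rises are not separate measurements. Among 17 measured annexins and S100 partners, ANXA2, ANXA2P2 and ANXA5 rose (17.6%, against 0.804% of all genes) and none fell, with a list median of 0.11. That share counts ANXA2 and ANXA2P2 as 2 genes. All gene lists here were chosen with earlier results of these data known. A share above that of all genes is therefore no independent evidence. ANXA5, which binds phosphatidylserine, was already high at 4 h (9.74, 9.87 and 9.90) and read 10.38, 10.44 and 10.51 at 12 h. Its rise was 0.61 (adjusted p = 0.0204). That call was lost without replicate 1 or 2 of 4 h (adjusted p = 0.11 and 0.0621) and without replicates 1, 2 or 3 of 12 h in turn (adjusted p = 0.066, 0.0578 and 0.103). HOMER1, a scaffold protein gene, and LIPI, a lipase gene, were near the lower quartile of the arrays at 4 h, with means of 2.94 and 2.75, where background can compress a difference. LIPI read 2.92, 2.48 and 2.85 and then 4.34, 3.68 and 5.31 (adjusted p = 0.00643), and was lower again at 48 h than at 12 h by a log2 difference of -1.37 (adjusted p = 0.00891). HOMER1 read 2.65, 3.32 and 2.85 and then 5.0, 3.69 and 5.27 (adjusted p = 0.024). The call of HOMER1 was lost without replicate 1 or 3 of 4 h (adjusted p = 0.116 and 0.0582) or replicate 1 or 3 of 12 h (adjusted p = 0.135 and 0.136).

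Lysosomal genes were among the rises. Of 38 lysosome and autophagy genes measured, 6 rose (15.8%, against 0.804% of all genes) and none fell, and the list median was 0.17. NPC1 and NPC2, which export cholesterol from lysosomes, rose by 1.84 and 0.97. NPC1 read 6.43, 6.32 and 6.54 at 4 h and 8.34, 7.98 and 8.48 at 12 h (limma adjusted p = 0.00174), with no overlap. ATP6V1D and ATP6V1A, subunits of the proton pump that acidifies lysosomes, rose by 1.12 and 0.74, and SQSTM1, the autophagy receptor p62, by 1.61. GPNMB, described above, was the sixth. The array values of SQSTM1 were 6.42, 6.30 and 7.78 and then 8.36, 8.43 and 8.53, with replicate 3 of 4 h closest to the 12 h arrays. Its call was lost without replicate 1 or 2 of 4 h (adjusted p = 0.108 and 0.104), or any 1 replicate of 12 h (adjusted p = 0.0728, 0.0552 and 0.0901). The call of ATP6V1D was lost without the same 5 arrays (adjusted p = 0.153, 0.148, 0.0874, 0.0884 and 0.141), and NPC2 and ATP6V1A each lost theirs without any of 6 arrays (highest adjusted p 0.185 and 0.0978). The count of 6 became 2 when replicate 1 or 2 of 4 h, or replicate 1, 2 or 3 of 12 h, was left out, and 5 without replicate 3 of 4 h.

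The largest falls after 4 h were those of RASSF6 and RASGRP3. RASGRP3, the exchange factor that couples diacylglycerol and phorbol ester signals to RAS, read 8.78, 8.84 and 8.88 at 4 h and 6.24, 6.90 and 6.05 at 12 h. It was 5.41-fold lower, a log2 difference of -2.44 (SE 0.27, limma adjusted p = 0.000349), after a difference of -0.49 at 4 h that was not called. RASSF6, which encodes a RAS-association domain protein, read 6.93, 6.73 and 6.80 and then 4.42, 4.51 and 4.19, 5.46-fold lower (adjusted p = 0.00131). BLNK, the adaptor that links the antigen receptor's kinase SYK to BTK and phospholipase C, fell from 7.33, 7.36 and 7.29 to 5.39, 4.79 and 5.54 (log2 difference -2.08, SE 0.30, adjusted p = 0.00202). BTK itself fell from 6.87, 6.71 and 6.50 to 5.35, 5.09 and 5.81 (log2 difference -1.27, adjusted p = 0.00316). In RASGRP3, RASSF6, BLNK and BTK the groups did not overlap, and none of these calls was lost without any 1 array of 0, 4 or 12 h.

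Of 26 genes of B cell receptor signalling, 4 fell (15.4%, against 0.831% of all genes), none rose and the list median was -0.45. The other two were CR2, the complement receptor that Epstein-Barr virus uses for entry, and FCRL3, an Fc receptor-like protein. CR2 read 6.55, 6.53 and 7.99 at 4 h and 5.11, 4.75 and 5.36 at 12 h, and replicate 3 was the highest of its 4 h arrays. The fall of CR2, 1.95 on the log2 scale (limma adjusted p = 0.0174), lost its call without replicate 1, 2 or 3 of 12 h (adjusted p = 0.0737, 0.0714 and 0.0537). FCRL3 fell from 5.99, 5.75 and 5.75 to 3.99, 4.13 and 4.53 (adjusted p = 0.0111). That call did not hold without the first array of 4 h (adjusted p = 0.0571) or of 12 h (adjusted p = 0.0662). Without replicate 1 of 12 h the list held 2 called genes.

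The list with the most falls held germinal centre and B surface genes: 9 of 28 fell (32.1%, against 0.831% of all genes), none rose, and the list median was -1.04. GCSAM, a germinal centre signalling protein, read 8.11, 8.40 and 8.32 at 4 h and 6.42, 5.80 and 6.61 at 12 h, 4.0-fold lower (limma adjusted p = 0.00102). CD84, a receptor of the SLAM family, read 6.91, 6.75 and 6.91 and then 5.15, 5.37 and 4.81 (log2 difference -1.75, SE 0.19, adjusted p = 0.000313). CLEC2D, a lectin-like ligand of an inhibitory receptor of natural killer cells, read 8.13, 8.09 and 7.53 and then 6.01, 6.35 and 5.88 (log2 difference -1.83, adjusted p = 0.000562). For GCSAM, CD84 and CLEC2D no array overlapped between the times and no left-out array ended the call. CD38, an ectoenzyme of germinal centre and plasma cells, read 7.97, 8.43 and 8.20 and then 6.30, 6.52 and 6.43, without overlap. Its standard error was 0.40, and its call (adjusted p = 0.0329) was lost when any 1 of the 6 arrays was left out. Those adjusted p were 0.0829, 0.141 and 0.0688 without replicates 1, 2 and 3 of 4 h and 0.141, 0.077 and 0.117 without those of 12 h. The other members that fell were MME (the surface enzyme CD10), CD27, CLECL1, RHOH and CYTIP, and leaving out single arrays ended the calls of MME and CYTIP for 4 and 5 of the 9 arrays (highest adjusted p 0.0703 and 0.135). The count of 9 became 4 when replicate 1, or else replicate 3, of 12 h was left out. Under quantile normalization and with arrays centred the list median was -1.02 and -1.06.

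Of 20 transcription factors of B cells, 2 fell (10%, against 0.831% of all genes), none rose and the list median was -0.32. POU2AF1, the coactivator OCA-B, fell from 6.68, 7.04 and 7.47 to 5.91, 6.16 and 6.11, and IKZF3, the lymphoid factor Aiolos, from 7.98, 7.41 and 8.37 to 6.79, 7.10 and 6.87. These 2 had the highest adjusted p of the genes called in the B cell receptor, germinal centre and transcription factor lists (limma adjusted p = 0.0407 and 0.0389). For POU2AF1 the call was lost without replicate 2 of 0 h, replicates 2 and 3 of 4 h and each replicate of 12 h, singly (adjusted p = 0.0533, 0.129, 0.136, 0.18, 0.0824 and 0.126). For IKZF3 it was lost without replicate 1 or 2 of 0 h (adjusted p = 0.0509 each), replicate 1 or 3 of 4 h (0.143 and 0.133) and each replicate of 12 h (0.171, 0.0643 and 0.145). With arrays centred on their medians, neither passed the test (adjusted p = 0.051 and 0.0529). IKZF3 also missed it with all 18 arrays in the fit and with 6 (adjusted p = 0.0984 and 0.0654), and POU2AF1 with a variance trend and robust moderation (adjusted p = 0.0546). The plasma cell list, 15 genes with a median of -0.14, had 2 falls (13.3%, against 0.831% of all genes), CD38 and HERPUD1, and no rise.

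Other large falls were of genes with varied roles. SPARCL1, a secreted glycoprotein of the extracellular matrix, had the smallest p of all called genes: it read 8.71, 8.50 and 8.20 at 4 h and 6.31, 6.29 and 6.29 at 12 h, a log2 difference of -2.17 (SE 0.17, limma adjusted p = 2.1e-05). CHI3L2, a secreted chitinase-like protein, read 7.38, 7.51 and 8.05 and then 5.31, 5.76 and 5.0, 4.89-fold lower (adjusted p = 0.00477). Among 33 secreted, matrix and adhesion genes these 2 falls stood beside 3 rises, SPP1, TIMP1 and SERPINI1 (15.2% called, against 1.63% of all genes). All 5 calls held without any 1 array of 0, 4 or 12 h. FAS, the death receptor CD95, read 7.80, 8.02 and 8.15 at 4 h and 5.81, 6.27 and 5.82 at 12 h, 4.05-fold lower (SE 0.26 on the log2 scale, adjusted p = 0.00102). Its 4 h level differed from that of 0 h by -0.06. CADPS, which primes secretory vesicles, fell by 1.92 (adjusted p = 0.000583), OR13A1, an olfactory receptor gene, by 1.75 (adjusted p = 0.00186), TAPT1, a transmembrane protein gene, by 1.64 (adjusted p = 0.00186) and CD180, a Toll-like receptor homologue of B cells, by 1.55 (adjusted p = 0.0012). IRAG2, a membrane protein of the endoplasmic reticulum in lymphocytes, was the brightest of the leading falls, with 10.97, 10.80 and 10.53 at 4 h and 9.07, 8.46 and 9.05 at 12 h (adjusted p = 0.0121). Without replicate 1 of 4 h, replicate 2 of 4 h or replicate 2 of 12 h, IRAG2 missed the threshold (adjusted p = 0.0642, 0.0515 and 0.0552).

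As a class, the 104 delayed genes that rose had a median difference from 0 h of 0.10 at 4 h and 1.13 at 12 h, followed by 1.22 and 0.99 at the times of 24 h and 48 h. The 84 that fell stood, in the same order, at -0.15, -1.17, -1.03 and -1.0. The values at 4 h and 12 h follow from how the class was chosen, and all are set against the 0 h arrays that helped to choose it. On the arrays of 8 h, which the classes did not use, the medians were 0.84 and -0.86. The 8 h mean lay between the means of 4 h and 12 h for 100 of the 104 and for 82 of the 84. Genes were chosen for a gap between those means, which favours an 8 h mean inside it. The share over all genes was not counted. Of the 104 rises, 10 rose further and 19 were lower again at 48 h against 12 h, a comparison that called 910 genes (4.94%). Of the 84 falls, 10 fell further and 12 rose. The same 12 h arrays chose the class and are the baseline of this comparison, which favours apparent reversals. The edge of the class lay between TBC1D5, with a difference of -0.50 at 4 h and -1.45 after it, and APLP2, with 0.51 and 1.01 (0.506 against the limit of 0.5).

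Being called after 4 h and not before does not show that the 2 intervals differ, so the difference of the differences, 12 h minus 4 h less 4 h minus 0 h, was tested as well. It was called for 30 of all genes (0.163%) and for 4 of the 188 delayed genes. GPNMB rose by 2.43 in the later interval after -0.19 in the earlier (limma adjusted p of the second difference = 0.0339). SLC1A1, a glutamate and cysteine transporter gene, rose by 1.35 after -0.29 (adjusted p = 0.0233). SPARCL1 fell by 2.17 after -0.46 (adjusted p = 0.0275), and CD180 fell by 1.55 after 0.39 (adjusted p = 0.0431). For ANXA2 and SPP1 the adjusted p was 0.0596 and 0.0639. For the other delayed genes the 2 intervals were not shown to differ. Both intervals use the 4 h arrays, which count with opposite sign in them. The later interval (4 h to 12 h) is also longer than the earlier (0 h to 4 h), and the differences were not divided by length. A gene that changes at a steady rate therefore also has a second difference, so a call here does not show a delay.

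Several delayed genes went on changing. TIMP1 rose by a further 2.75 between 12 h and 24 h (limma adjusted p = 0.00191, with 241 of all genes, 1.31%, called in that comparison), APOBEC3B by 2.86 (adjusted p = 0.000214), and TNFRSF9, of no class, by 1.59 (adjusted p = 0.0077). PHLDA1, a pleckstrin homology-like gene that rose by 1.40 after 4 h (adjusted p = 0.00251), rose by a further 0.91 (adjusted p = 0.0446). Others reversed later. At 48 h RASGRP3 was higher than at 12 h by 1.54 (adjusted p = 0.00271), FCRL3 by 1.79 (adjusted p = 0.00167), CD38 by 1.87 (adjusted p = 0.0111) and CHI3L2, of no class, by 1.99 (adjusted p = 0.00433). FAS was higher by 1.12 at 24 h (adjusted p = 0.0463). BLNK and CD84 differed from 12 h by -0.42 and 0.22 at 48 h (adjusted p = 0.608 and 0.7).

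**Figure D3:**
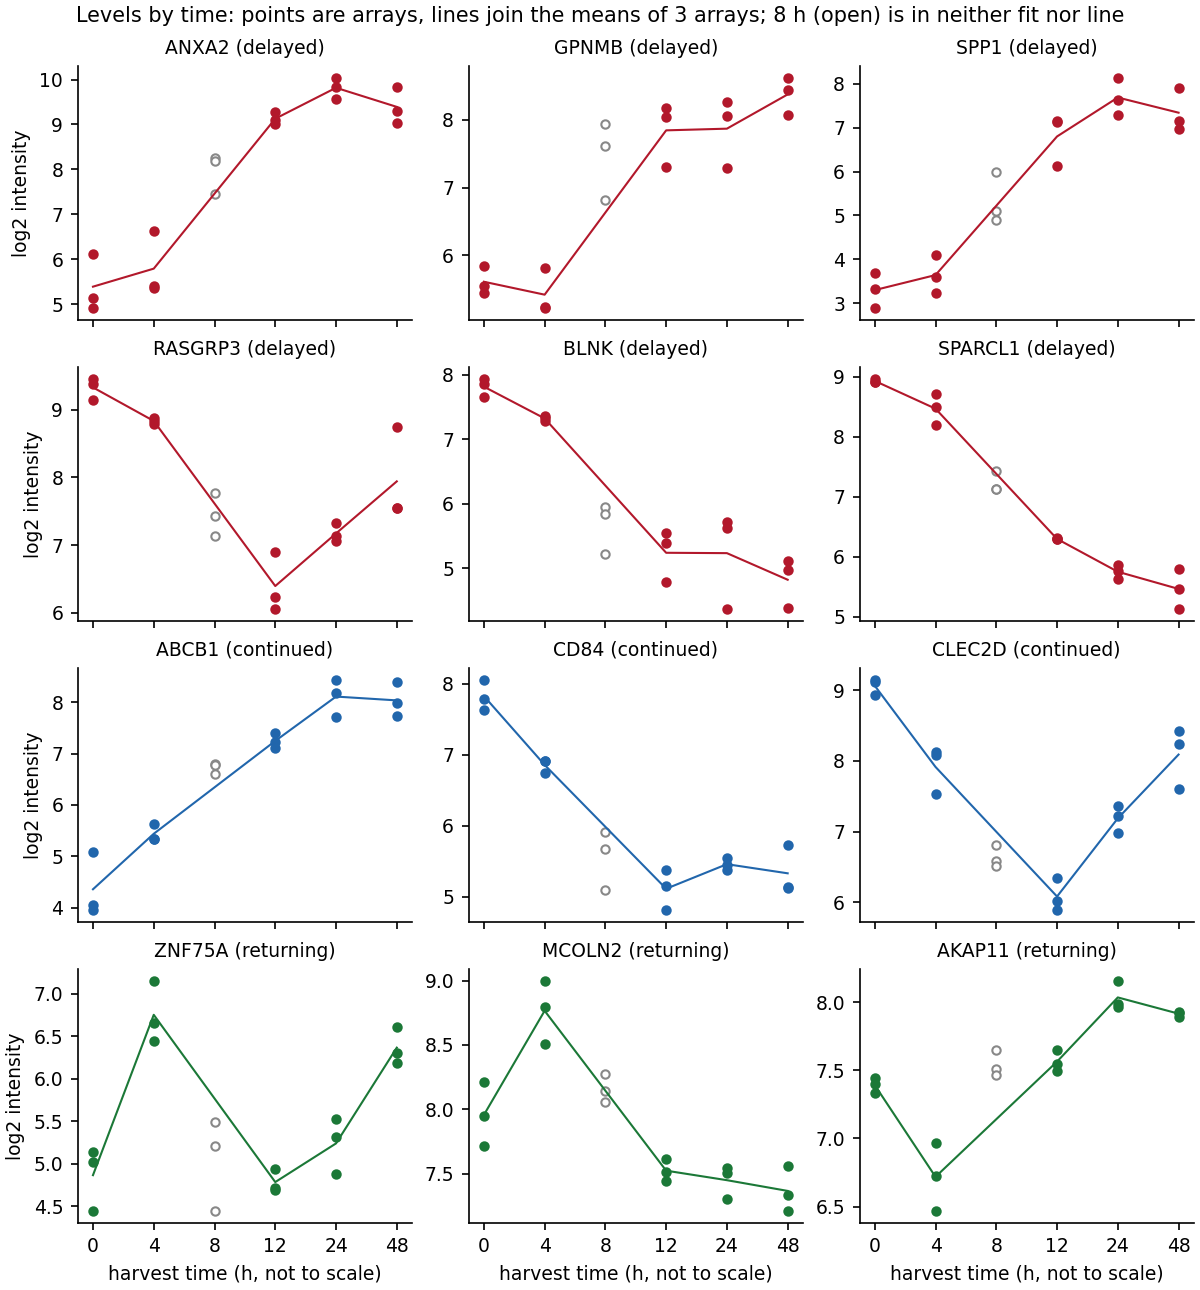
Levels (log2 intensity, vertical axis) of 12 genes by harvest time (0, 4, 8, 12, 24 and 48 h, horizontal axis, not to scale), with 1 point per array and lines through the means of 3 arrays. Open points are 8 h, which neither the fit nor the line uses. ANXA2, GPNMB and SPP1 stay near their 0 h level at 4 h and are high from 12 h on, RASGRP3 and CLEC2D are lowest at 12 h, and ZNF75A is high at 4 h, back near its 0 h level at 12 h and high again at 48 h.

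The 21 continued genes had moved by 4 h and moved further in the same direction. ABCB1, which encodes the drug efflux pump P-glycoprotein, read 5.34, 5.34 and 5.64 at 4 h and 7.41, 7.11 and 7.21 at 12 h. Its rise of 1.80 in the later interval (SE 0.27, limma adjusted p = 0.00251) followed one of 1.08 in the earlier (adjusted p = 0.0488). ARHGEF12, an activator of the GTPase RHOA, rose by 1.48 (adjusted p = 0.000733) after 0.74 (adjusted p = 0.0478). TUBB2A, a beta-tubulin gene, rose by 1.5 (adjusted p = 0.0359) after 1.94 (adjusted p = 0.00925), from 7.81, 7.39 and 8.28 to 9.41, 9.43 and 9.15. Its call in the later interval did not hold without replicate 2 of 0 h (adjusted p = 0.0509), replicate 1 or 2 of 4 h (0.125 and 0.175) or any 1 replicate of 12 h (0.147, 0.105 and 0.099). A probe set of TUBB2A of lower level rose by 0.90 in the same interval.

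Falls that continued included CLEC2D (log2 difference -1.15 and then -1.83), CD84 (-0.97 and -1.75) and CLECL1, a lectin-like gene of antigen-presenting cells (-1.36 and -1.42). The later fall of CLECL1 had a limma adjusted p of 0.00406 and no overlap, with 6.91, 6.36 and 6.51 at 4 h against 5.32, 4.99 and 5.20. FBXO4, a ubiquitin ligase subunit, fell by 1.02 by 4 h, with a later log2 difference of -1.14 (adjusted p = 0.00906), and CMAHP, a sialic acid hydroxylase pseudogene, had differences of -0.72 and -1.08 (adjusted p = 0.00249). RNU11, an RNA of the minor spliceosome, had differences of -1.19 and -1.13 (adjusted p = 0.0113). The call of RNU11 was lost without replicate 1 or 2 of 4 h (adjusted p = 0.0642 and 0.0532) or replicate 1 or 3 of 12 h (adjusted p = 0.0582 and 0.0669). RHOH, a GTPase of blood cells, had differences of -1.64 and -1.06 (adjusted p = 0.0292), and had 1 high array at 4 h (6.46, 6.51 and 7.44, then 5.88, 5.74 and 5.62). Without replicate 3 of 4 h or replicate 1, 2 or 3 of 12 h its call was lost (adjusted p = 0.0753, 0.0818, 0.0806 and 0.132). CLEC2D and RHOH rose again after 12 h, by 2.01 and 2.36 at 48 h (adjusted p = 2.74e-05 and 1.08e-05). The class as a whole counted between 5 and 8 genes without replicate 1 of 4 h (5), replicate 2 of 4 h (6), replicate 1 of 12 h (7) or replicate 3 of 12 h (8). It counted 11 and 12 without replicates 1 and 2 of 0 h.

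ZNF75A, which encodes a zinc finger protein, showed the largest return. Its arrays read 6.45, 6.65 and 7.15 at 4 h and 4.71, 4.94 and 4.70 at 12 h, against a mean of 4.87 at 0 h. The rise of 1.89 by 4 h (limma adjusted p = 0.00079) was followed by a log2 difference of -1.97 (SE 0.22, adjusted p = 0.000385), which left 12 h at -0.08 from 0 h. At 48 h it was high again, by 1.58 over 12 h (adjusted p = 0.000387). A second probe set of the gene fell by 1.07 between 4 h and 12 h. MCOLN2, a cation channel gene of endosomes and lysosomes, read 9.0, 8.79 and 8.50 and then 7.44, 7.61 and 7.51, after a mean of 7.96 at 0 h. It fell by 1.24 (adjusted p = 0.0012) and ended at -0.43 from 0 h, which was not called. AKAP11, an anchoring protein of protein kinase A, ran the other way, from a mean of 7.39 at 0 h to 6.97, 6.72 and 6.47 at 4 h and 7.54, 7.65 and 7.50 at 12 h (a rise of 0.84, adjusted p = 0.00512). ZNF75A, MCOLN2 and AKAP11 kept their calls whichever array of 0, 4 or 12 h was left out.

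The remaining 7 returning genes were MTND2P28, a pseudogene that can share signal with its mitochondrial parent gene, CEP76 of the centrosome, PCF11 of transcript cleavage, the olfactory receptor gene OR5B21, the RNA-binding repressor RC3H1, the SUMO protease USPL1 and, upward, the transcription initiation factor TAF12. Their later differences ran from -1.04 for MTND2P28 to -0.71 for USPL1, and TAF12 rose by 0.89, with limma adjusted p from 0.0128 to 0.0302. Each lost its call without 3 to 5 of the arrays, singly. With replicate 1 of 4 h left out these were MTND2P28, CEP76, OR5B21, RC3H1 and TAF12 (adjusted p from 0.0547 to 0.154), with replicate 2 MTND2P28, CEP76, RC3H1 and TAF12 (0.0616 to 0.126) and with replicate 3 OR5B21, RC3H1 and USPL1 (0.0753 to 0.107). Leaving out replicate 1 or 3 of 12 h ended all 7 calls (adjusted p from 0.0525 to 0.168 and from 0.0548 to 0.111), and leaving out replicate 2 those of MTND2P28, CEP76, PCF11 and USPL1 (0.0544 to 0.0965). The class counted 3 genes without replicate 2 of 0 h, replicate 1 of 12 h or replicate 3 of 12 h, 4 without replicate 1 or 2 of 4 h, and 16 when replicate 3 of 4 h was dropped. The 24 h mean lay nearer to 0 h than to 4 h for 9 of the 10 genes, a description only, since the same 0 h and 4 h means chose the class. At 48 h this again held for 9 of 10.

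A wider class, given as values without a test of the return, held 49 genes called at 4 h whose difference after 4 h had the opposite sign and at least 0.5 times the size. Of these, 33 had been high at 4 h and 16 low. For 37 of the 49 the 8 h mean lay between those of 4 h and 12 h, and for 40 the 24 h mean was nearer to 0 h than to 4 h. Both counts are descriptions only, since the means of 0, 4 and 12 h chose the class. An error in the 4 h mean enters both intervals with opposite sign, which favours an apparent return. Beside ZNF75A, the largest early rises among them were PRKXP1, a protein kinase pseudogene, MAP3K8, a kinase upstream of ERK, SLC30A1, a zinc exporter gene, GPR75, a receptor gene, and SPATA31G1. MAP3K8 had risen by 1.38 at 4 h and read 7.47, 7.41 and 7.29 there against 6.39, 6.95 and 6.54 at 12 h, a later log2 difference of -0.76 (limma adjusted p = 0.0702). PRKXP1 had risen by 1.88 and then differed by -1.38 (adjusted p = 0.0741), and at 48 h its mean was 6.13 against 5.09 at 24 h. SLC30A1 differed by -0.71 after 1.39 and GPR75 by -0.81 after 1.37 (adjusted p = 0.348 and 0.0689). The largest early falls were MMAA of vitamin B12 metabolism, DET1, ZNF181, SRBD1, ZNF624 and LCMT2, whose later differences were 0.57 to 1.18 (adjusted p from 0.0554 to 0.208).

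Of 24 immediate early and AP-1 genes, 0 were called after 4 h by limma (1.63% of all genes). An unadjusted p under 0.05 was found for 0 (10.8% of all genes), and the list median was -0.03. The smallest p belonged to FOSL2, an AP-1 subunit (difference 0.35, adjusted p = 0.567), and KLF10, an early zinc finger factor (-0.45, adjusted p = 0.675), whose arrays lay at 7.28, 7.26 and 7.28 at 4 h and 6.87, 6.59 and 7.02 at 12 h. PHLDA1 was the 1 of 18 ERK feedback genes that rose (5.56%, against 0.804% of all genes). RASGRP3 was the 1 of 23 genes of protein kinase C and RASGRP signalling that fell (4.35%, against 0.831%). None of 20 NF-kappaB target genes was called by limma, and 4 had an unadjusted p under 0.05 (20%, against 10.8% of all genes). The family's own subunits NFKB1 (7.37, 7.70 and 7.46, then 6.58, 6.74 and 6.49) and REL had differences of -0.91 and -0.59 (adjusted p = 0.122 and 0.193). Their arrays did not overlap between the times, which held for 17.9% of all genes. In the TNF ligand and receptor superfamilies, 31 genes, TNFRSF9 rose and FAS and CD27 fell (9.68% called, against 1.63% of all genes). CD27, a costimulatory receptor of B and T cells, fell by 1.27 (adjusted p = 0.0253), and its call was lost without replicate 3 of 4 h, replicate 1 of 12 h or replicate 3 of 12 h (adjusted p = 0.0729, 0.134 and 0.103).

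**Figure D4:**
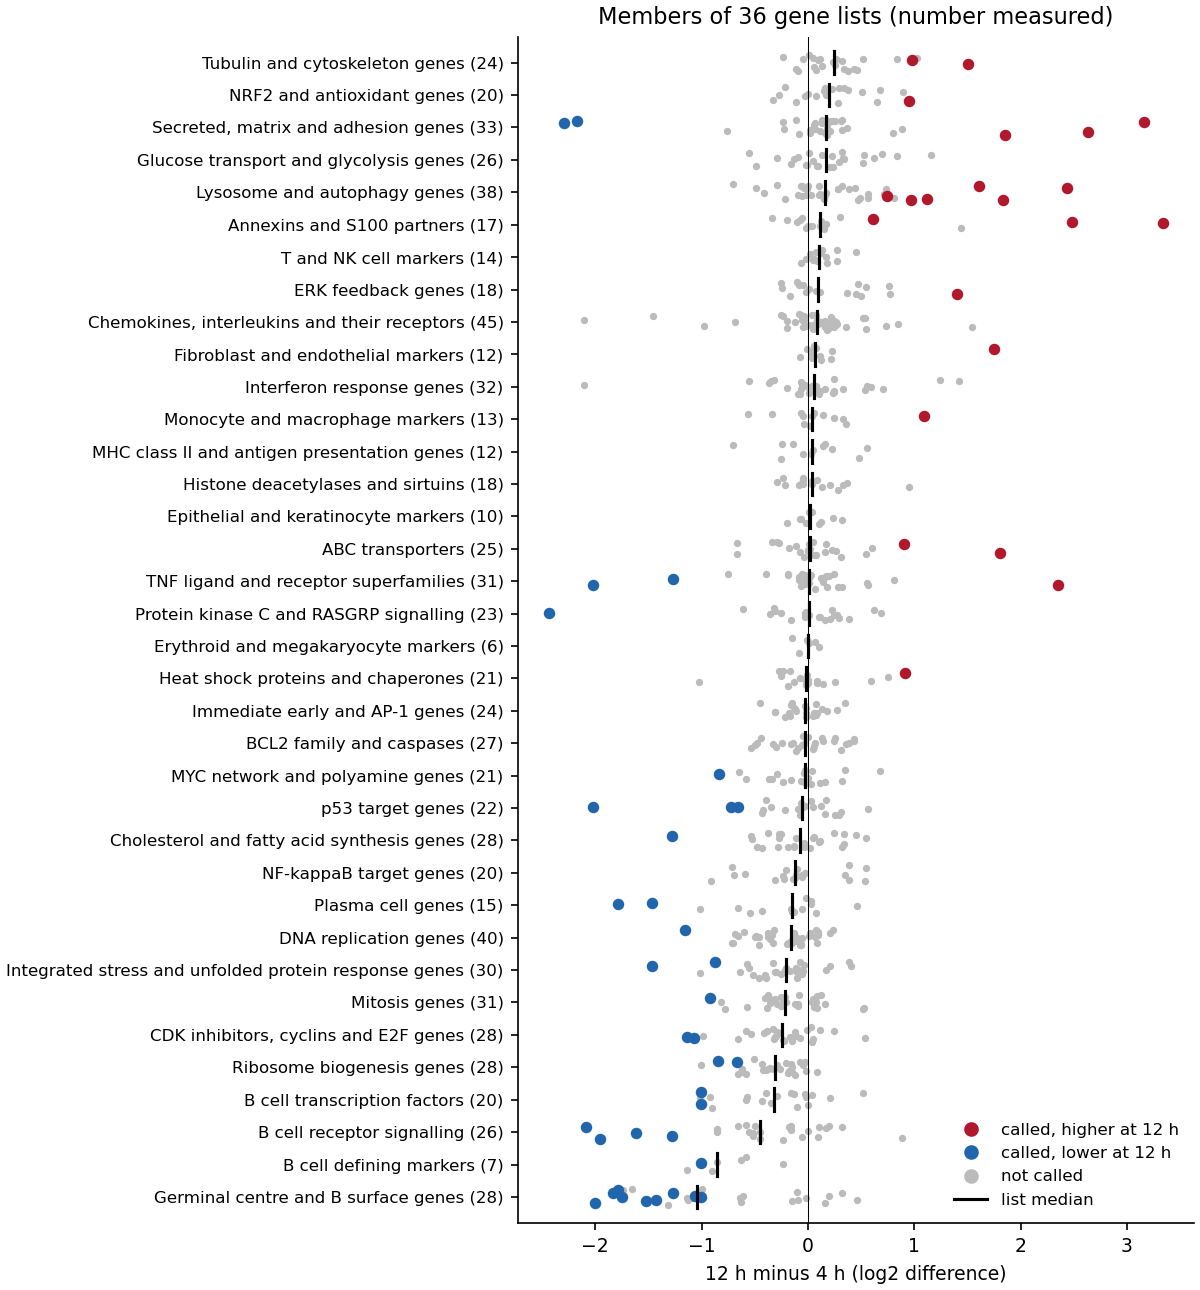
Each row is 1 of 36 gene lists (number of genes measured in brackets) and each point 1 member, placed by its log2 difference of 12 h minus 4 h (horizontal axis, vertical scatter within a row only separates points). Red points rose and blue points fell past the test, grey points did not pass it, and black bars are list medians. The germinal centre and B surface list, with a median of -1.04 and 9 falls, lies lowest, and the called members of the lysosome and annexin lists lie to the right of 0.

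Counts of cytokine and interferon genes were near those of all genes, of which 1.63% were called and 10.8% had an unadjusted p under 0.05: 0 of 45 chemokines, interleukins and their receptors and 0 of 32 interferon response genes passed limma's test, with medians of 0.09 and 0.06, and 5 (11.1%) and 4 (12.5%) had an unadjusted p under 0.05. The spread between arrays was wide here. CXCL10, an interferon-induced chemokine, read 6.77, 6.69 and 5.32 at 4 h and 4.22, 4.03 and 4.21 at 12 h, a log2 difference of -2.11 with an SE of 0.63 (adjusted p = 0.128), and rose by 6.23 between 12 h and 24 h (adjusted p = 9.65e-05). SAMD9, an interferon-induced antiviral gene, read 7.77, 7.90 and 5.99 and then 8.97, 8.18 and 8.76 (adjusted p = 0.197). IL7R, the interleukin-7 receptor, had fallen by 1.12 at 4 h and differed by -0.98 after it (adjusted p = 0.056).

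Of the proliferation lists, 2.5% of replication, 3.23% of mitosis and 7.14% of cyclin and E2F genes fell, against 0.831% of all genes, and none rose. Of 40 DNA replication genes TYMS, the thymidylate synthase gene, fell by 1.16 (limma adjusted p = 0.0218), from 10.05, 9.92 and 9.44 to 8.83, 8.16 and 8.94, and the list median was -0.16. Of 31 mitosis genes MAD2L1, of the spindle checkpoint, fell by 0.92 (adjusted p = 0.0347; list median -0.22). Of 28 cyclins, CDK inhibitors and E2F genes CDC25A, a phosphatase that activates CDKs, and E2F5 fell, with log2 differences of -1.14 and -1.07 (adjusted p = 0.0322 and 0.00364; list median -0.25). The E2F5 call held without any 1 array of 0, 4 or 12 h. TYMS lost its call without replicate 1 or 2 of 4 h or of 12 h (adjusted p = 0.115, 0.0939, 0.0602 and 0.0915). MAD2L1 lost it without replicates 1, 2 or 3 of 4 h (0.131, 0.0979 and 0.0792) or 1 or 2 of 12 h (0.181 and 0.112), and CDC25A without replicates 1 or 3 of 4 h (0.066 and 0.106) or of 12 h (0.176 and 0.113). CDC25A also missed the threshold with all 18 arrays in the fit and with 6 (adjusted p = 0.126 and 0.0845), and MAD2L1 with a variance trend and robust moderation (adjusted p = 0.0546). TYMS, MAD2L1 and CDC25A were lower again at 48 h than at 12 h, by log2 differences of -1.40, -1.88 and -1.27 (adjusted p = 0.00235, 3.93e-05 and 0.00687).

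Of 22 p53 target genes 3 fell (13.6%, against 0.831% of all genes), FAS, RRM2B and MDM2, and none rose. RRM2B, a ribonucleotide reductase subunit, and MDM2, the ubiquitin ligase of p53, fell by 0.73 and 0.65 (limma adjusted p = 0.0113 and 0.0247). RRM2B lost its call without replicate 2 of 4 h or replicate 1 or 3 of 12 h (adjusted p = 0.0532, 0.0638 and 0.0532), and MDM2 without replicate 1 or 2 of 4 h or replicate 1 or 3 of 12 h (adjusted p = 0.133, 0.0979, 0.135 and 0.0969). MDM2 also missed the threshold in the fits of 9 arrays (0, 4 and 12 h) and 6 arrays and with quantile normalization (adjusted p = 0.0565, 0.0652 and 0.0556). Without replicate 2 of 4 h or replicate 1 or 3 of 12 h the list's count was 1. The BCL2 family and caspases had 0 calls by limma among 27 genes (1.63% of all genes), and 3 had an unadjusted p under 0.05 (11.1%, against 10.8%). BCL2L11, the cell death activator BIM, and CYCS, cytochrome c, had differences of -0.53 and -0.49 (adjusted p = 0.166 and 0.178).

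In the growth and biosynthesis lists 7.14% of ribosome biogenesis, 4.76% of MYC network and 3.57% of lipid synthesis genes fell, against 0.831% of all genes, and none rose. Of 28 ribosome biogenesis genes DKC1, the pseudouridine synthase dyskerin, and UTP15, a factor of ribosomal RNA processing, fell by 0.67 and 0.85 (limma adjusted p = 0.0235 and 0.00859). The list median was -0.31, and 1 member had a difference above 0 (3 with quantile normalization). PAICS, a purine synthesis enzyme, was the 1 of 21 genes of the MYC network and polyamine list that fell, by 0.84 (adjusted p = 0.0225). ELOVL6, a fatty acid elongase, was the 1 of 28 cholesterol and fatty acid synthesis genes that fell, by 1.28 (adjusted p = 0.00806). UTP15 and ELOVL6 lost the call only without replicate 1 of 12 h (adjusted p = 0.0563 and 0.0528). DKC1 and PAICS lost theirs without replicates 1 or 3 of 4 h (adjusted p = 0.0857 and 0.0884 for DKC1, 0.069 and 0.0818 for PAICS) or of 12 h (0.127 and 0.0839, 0.137 and 0.116).

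HSPA5, the chaperone BiP of the endoplasmic reticulum, and HERPUD1, of degradation from that compartment, fell in the integrated stress and unfolded protein response list. They were 2 of 30 genes (6.67%, against 0.831% of all genes), and none rose. HSPA5 fell from 10.00, 9.96 and 10.26 to 8.91, 9.39 and 9.29 (limma adjusted p = 0.0105, and 0.0657 without replicate 1 of 12 h). HERPUD1 fell from 9.40, 9.63 and 9.88 to 7.89, 8.58 and 8.05 (adjusted p = 0.0111), after a difference of 0.69 at 4 h that was not called. It lost the call without replicate 1 or 3 of 12 h (adjusted p = 0.0737 and 0.063). GCLC, the rate-limiting enzyme of glutathione synthesis, was the 1 of 20 NRF2 and antioxidant genes that rose (5%, against 0.804% of all genes). Its difference was 0.95 (adjusted p = 0.0115). Its call was lost without replicate 1 or 2 of 4 h or replicate 1 or 3 of 12 h (adjusted p = 0.0548, 0.06, 0.0601 and 0.0564). HSPA2 was the 1 of 21 heat shock genes that rose (4.76%, against 0.804% of all genes), by 0.91 (adjusted p = 0.0424). That call was lost without replicate 1 of 0 h, replicates 1 or 2 of 4 h or any 1 of 12 h (adjusted p = 0.0529, 0.164, 0.168, 0.16, 0.102 and 0.136) and with arrays centred (adjusted p = 0.0624).

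Of 24 tubulin and cytoskeleton genes TUBB2A and VCL rose (8.33%, against 0.804% of all genes) and none fell, with a list median of 0.25. VCL, the focal adhesion protein vinculin, rose from 5.44, 5.69 and 5.47 to 6.67, 6.28 and 6.58 (limma adjusted p = 0.0111). That call was lost without replicate 1 of 4 h, replicate 1 of 12 h or replicate 3 of 12 h (adjusted p = 0.0582, 0.0701 and 0.0599). Of 25 ABC transporters ABCB1 and ABCD3, a peroxisomal transporter, rose (8%, against 0.804% of all genes), the latter by 0.90 (adjusted p = 0.0198). ABCD3 lost its call without replicate 1 or 2 of 4 h or any 1 replicate of 12 h (adjusted p = 0.0626, 0.0898, 0.087, 0.0561 and 0.0777). By limma no gene was called among 18 histone deacetylases and sirtuins or 12 MHC class II and antigen presentation genes. Nor was any of 26 genes of glucose transport and glycolysis. In this order 1, 1 and 4 had an unadjusted p under 0.05 (5.56%, 8.33% and 15.4%, against 10.8% of all genes). In these lists HDAC3, a butyrate-sensitive deacetylase, differed by 0.95, CTSS, the lysosomal protease cathepsin S, by -0.70, and PKM, pyruvate kinase, by 0.70 (adjusted p = 0.246, 0.277 and 0.291).

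Cell type markers were examined because a bulk array cannot tell fewer cells of a type from less RNA per cell. All 7 measured B cell defining markers were well above the lower quartile at both times, and MS4A1 (CD20) was the brightest, with a mean of 9.90 at 4 h and 8.76 at 12 h. The mean level over the 7 lay between 7.04 and 7.80 on the 4 h arrays and between 6.38 and 6.64 on the 12 h arrays. All 7 had a lower mean at 12 h, also with quantile normalization and with arrays centred, but POU2AF1 alone was called. Their part in the falls of the B cell lists was not tested. Markers of other cell types had low mean levels: 3.64 to 3.88 per array for 14 T and NK cell markers, 3.80 to 4.08 for 13 monocyte and macrophage markers, 3.81 to 4.08 for 10 epithelial and keratinocyte markers, 3.69 to 4.00 for 12 fibroblast and endothelial markers and 3.71 to 4.00 for 6 erythroid and megakaryocyte markers. Single members were brighter, the highest of each list at 12 h being CD7 (5.98), CD68 (6.37), KRT18 (5.19), ACTA2 (6.14) and GATA1 (4.63). Of the 55 markers of other cell types 2 were called, where 1.63% of all genes were. CD68, a lysosomal glycoprotein of macrophages, rose by 1.09 (limma adjusted p = 0.0145), and PECAM1, described above, by 1.75. CD68 read 5.20, 5.54 and 5.11 at 4 h and 6.30, 6.44 and 6.38 at 12 h, and its call was lost without replicate 1 of 4 h or replicate 1, 2 or 3 of 12 h (adjusted p = 0.0706, 0.0597, 0.0516 and 0.0669). T cell receptor genes CD3D and CD3E, at 4 h means of 3.61 and 3.10, differed by 0.46 and 0.28 (adjusted p = 0.687 and 0.692).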

How the data were processed

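Total RNA of Raji cells was measured on Affymetrix gene arrays, 3 per harvest time, and 1 value per probe set was deposited. The authors' deposited values are log2 intensities, judged from their range. How they corrected background and normalized, and with which software, is not given in the sources used here. The values entered the fit unchanged.

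Of 33297 probe sets, GEO's platform annotation names 1 gene for 19460, several for 1754 (left out) and none here for 12083. By gene ID 19429 matched RefSeq, with 0 symbols updated. For 769 genes with several probe sets, the highest mean was taken. A linear model with time as the only term was fitted to 15 arrays (0, 4, 12, 24 and 48 h; 10 residual and 5.59 prior degrees of freedom) with limma 3.58.1 in R 4.3.3. Its two-sided moderated tests were adjusted by Benjamini-Hochberg over 18417 genes and tested on simulated data. Folds are powers of the log2 difference. The number of arrays and the spread between them limit the precision. Tables, motifs and plots used Python 3.11.15, pandas 2.3.3 and matplotlib 3.10.9.

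Named genes were the 15 largest rises and falls among called genes without overlap between the times, the 10 largest delayed genes in each direction, the 10 largest continued genes, all returning genes, the 6 largest early changes of the wider class in each direction, and of each of 36 lists (871 genes, 805 measured) up to 4 called members, or 2 of smallest p. Members and lists were chosen with earlier results of these data known. A second difference and a delayed class without a limit at 4 h were added after the data were seen. Replicate numbers were not used to pair the samples. The check given with the alternatives covers 4 h and 12 h only. Alternatives were the arrays in the fit, scaling, a filter on dim genes, probe set choice, array weights, covariates, thresholds and leaving out each array.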

Additional observations from a re-analysis of the deposited data

How the results depend on the processing

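Of the 74 named called genes, 34 kept the call under all 22 alternatives counted per gene. Another 40 lost it under at least 1, 39 of them without some single array, and 0 reversed. The 2-fold minimum is not among the 22. The adjusted p under 0.10 is among them and cannot end a call. The fit of 6 arrays ended 12 of these calls (HOMER1, RHOH, MTND2P28, PCF11, USPL1, IKZF3, CD27, CDC25A, MDM2, PAICS, DKC1 and SQSTM1; adjusted p 0.0515 to 0.0845), and all 18 arrays 4 (RNU11, RC3H1, IKZF3 and CDC25A; 0.0508 to 0.126). Leaving out each array of 0, 4 and 12 h in turn gave 89 to 337 called genes, 58 to 186 delayed, 5 to 21 continued and 3 to 16 returning. Array weights gave 885 called, 485 delayed, 63 continued and 47 returning genes. An adjusted p under 0.10 gave 495, 305, 48 and 28, and a 2-fold minimum 165, 91, 8 and 2. The interquartile range as a covariate gave 33 continued genes, and the fit of 9 arrays 16 returning genes. The cause of these shifts was not tested, beyond the thresholds' own construction. Requiring the second difference left 4 delayed genes, and no limit at 4 h gave 233, both chosen after seeing the data. Genes higher at 12 h made up 49.2% of calls in the deposited scaling, 42.8% with centring and 57.3% with quantile normalization.

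Between 4 h and 12 h the replicate numbers gave no pairing. Deviations from the time means correlated at 0.135, -0.229 and -0.129 between equal numbers, and at -0.304 to 0.364 between unlike numbers. Other pairs of times, 0 h with 4 h among them, were not checked, so an effect shared by replicate number there was not tested. With the replicate number as a block, 359 genes were called, 289 of them among the 301, and 17 were returning. The fit of 6 arrays gave no classes, as it has no 0 h.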

Other observations

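Outside the rule for named genes, and chosen after their values were seen, further called genes kept the call whichever single array of 0, 4 and 12 h was left out. Those given here are examples, and no theme was tested. CTNNA1, alpha-catenin of cell junctions, rose by 1.51 (limma adjusted p = 0.00202), LAMC1, a laminin chain of the basement membrane, by 1.18 (adjusted p = 0.000875), DOCK4, an activator of RAC GTPases, by 1.57 (adjusted p = 0.00173), and UTRN, the dystrophin relative utrophin, by 1.39 (adjusted p = 0.00394). Lysosomal enzymes outside the list went both ways: the proteases LGMN, legumain, and CTSV, cathepsin V, rose by 1.10 and 1.00 (adjusted p = 0.00348 and 0.00281), and NAAA, an amidase, and ARSB, a sulfatase, had differences of -0.93 and -0.66 (adjusted p = 0.0252 and 0.0307). NAAA and ARSB lost the call without 4 and 5 of the 9 arrays, singly. ABAT, which breaks down the transmitter GABA, rose by 1.5 (adjusted p = 0.000274). The 7 rises were delayed, with 4 h differences between 0.14 and 0.44.

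Among the falls, VPREB3, a chaperone of the B cell receptor's assembly, differed by -1.20 (limma adjusted p = 0.00334), PTPN22, a lymphoid phosphatase, by -1.34 (adjusted p = 0.00564), KMO, of tryptophan breakdown, by -1.31 (adjusted p = 0.0012) and STAG2, a cohesin subunit, by -1.29 (adjusted p = 0.0012). VNN2, a surface enzyme of leukocytes, differed by -1.54 (adjusted p = 0.00502). The first 4 were delayed and VNN2 belonged to no class.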
